A study of Rattus norvegicus with 10 samples.

Results

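The genes described here encode 9 reductases of quinones, aldehydes, ketones and unsaturated carbonyl compounds: Nqo1, Akr7a3, Akr7a2, Akr1b8, Akr1b10, Akr1a1, Cbr1, Cbr3 and Ptgr1. Every array probe set whose single annotated gene symbol was one of these names was taken, which gave 10 of 31042 probe sets and 9 of 14217 genes. Akr1b10 had 2 probe sets and each of the others had 1. The tissue was the transitional epithelium lining part of the nasal cavity of male F344/N rats, an inbred strain, aged 5 to 6 weeks when the study began. One group of 5 rats was given N,N-dimethyl-p-toluidine (DMPT), an aromatic amine that speeds the setting of acrylic cements, by gavage in corn oil at 120 mg/kg/day for 5 days. The other 5 rats were given the corn oil vehicle alone (0 mg/kg/day) on the same schedule. The epithelium was cut from sections by laser capture microdissection, and its amplified, biotin-labelled RNA was hybridised to 1 Affymetrix array per animal. Values are log2 expression per probe set, so a difference of 1 is a 2-fold change.

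Quinones and aldehydes form when lipids are peroxidised and when foreign compounds are oxidised, and they react with thiols and proteins. Reductases of this kind pass electrons from NADPH to such compounds and turn them into hydroquinones, alcohols or saturated products, which are less reactive or can be conjugated and excreted. Several of their genes are known targets of the transcription factor NRF2, which is released from its inhibitor KEAP1 by electrophiles and binds antioxidant response elements in DNA. The nasal mucosa is rich in enzymes that metabolise foreign compounds.

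Promoter windows from RefSeq (assembly GRCr8, 250 bases before the annotated start and 50 from it onward) were matched for 8 of the 9 genes; Ptgr1 was not matched. Those of the nearby genes Akr7a3 and Akr7a2 are shown because their transcripts behaved differently after DMPT, and that of Nqo1 because it is the textbook inducible quinone reductase. Each reads 5′ to 3′ along its gene, with the bases from the annotated start onward in capitals. The Akr7a3 window is chr5:156876471-156876770 on the plus strand, the Akr7a2 window is chr5:156835339-156835638 on the plus strand, and the Nqo1 window is chr19:52220218-52220517 on the minus strand.
Akr7a3: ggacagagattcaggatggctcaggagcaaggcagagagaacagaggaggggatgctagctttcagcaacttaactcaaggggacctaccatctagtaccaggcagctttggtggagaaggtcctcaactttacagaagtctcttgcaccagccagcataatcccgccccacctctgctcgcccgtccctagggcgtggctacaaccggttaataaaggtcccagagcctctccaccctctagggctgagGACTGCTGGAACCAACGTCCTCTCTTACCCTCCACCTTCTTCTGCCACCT
Akr7a2: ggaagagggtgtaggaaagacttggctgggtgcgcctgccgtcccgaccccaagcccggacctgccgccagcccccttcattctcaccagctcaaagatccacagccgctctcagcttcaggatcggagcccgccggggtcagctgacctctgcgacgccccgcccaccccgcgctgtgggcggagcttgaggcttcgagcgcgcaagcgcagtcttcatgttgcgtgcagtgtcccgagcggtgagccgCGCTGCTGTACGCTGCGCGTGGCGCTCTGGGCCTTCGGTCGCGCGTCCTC
Nqo1: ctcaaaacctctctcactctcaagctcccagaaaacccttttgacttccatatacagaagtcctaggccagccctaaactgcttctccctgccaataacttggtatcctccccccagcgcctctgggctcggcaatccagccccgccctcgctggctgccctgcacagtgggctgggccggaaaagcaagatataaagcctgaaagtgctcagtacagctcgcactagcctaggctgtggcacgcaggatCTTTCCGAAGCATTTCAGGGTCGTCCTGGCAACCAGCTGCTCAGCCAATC
G and C made up 55.7% of the Akr7a3 window, 68.7% of the Akr7a2 window and 56.3% of the Nqo1 window. The core of the antioxidant response element, TGACNNNGC (read on the other strand as GCNNNGTCA), was searched on both strands. It was found in 0 of the 8 matched windows and in 12.1% of all 33469 promoter windows of this length. The absence of a match says only that these letters are not in these windows.

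The 10 arrays had pairwise correlations of 0.959 to 0.992. Vehicle replicate 2 stood apart from the others, with a mean r of 0.975 with its own group, against 0.985 to 0.986 for the other vehicle arrays. Of 7 markers common to epithelia, all were above the array medians of 8.21 to 8.35 in both groups, 2 were higher (Krt8 by 0.44 and Krt7 by 0.58) and 0 lower. Epcam averaged 13.52 ± 0.025 after DMPT and 13.59 ± 0.13 with vehicle, and Cdh1 13.18 in both groups (SD, n = 5 each). Of 7 olfactory neuron markers, 1 was higher (Adcy3 by 0.52) and 1 lower (Gap43, which fell by 0.79). Omp, their defining marker, averaged 7.41 after DMPT and 7.23 with vehicle, below the array medians, whereas Gng13 averaged 10.74 after DMPT and 10.78 with vehicle.

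After DMPT, 6 of the 9 reductase genes rose, 0 fell and 3 did not pass the test. Akr7a3 rose most among them, 14.9-fold. Akr1b10 and Cbr1 rose by 2.30-fold and 2.06-fold, and Ptgr1, Nqo1 and Akr1b8 by 1.71-fold, 1.67-fold and 1.57-fold. Akr7a2, Akr1a1 and Cbr3 did not pass. Over all genes, 7.13% were called higher and 6.77% lower by the same test (limma, adjusted p below 0.05 over all 31042 probe sets). The median difference of the 9 genes was 0.74 log2 units, against -0.0052 over all genes. Counted by probe sets, 7 of the 10 were higher and 0 lower, where 5.37% and 5.74% of all probe sets were called. The groups did not overlap in 8 of the 10 probe sets, as in 11.0% of all probe sets. In captured tissue, more cells of a type and more RNA per cell cannot be told apart.

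**Figure D1:**
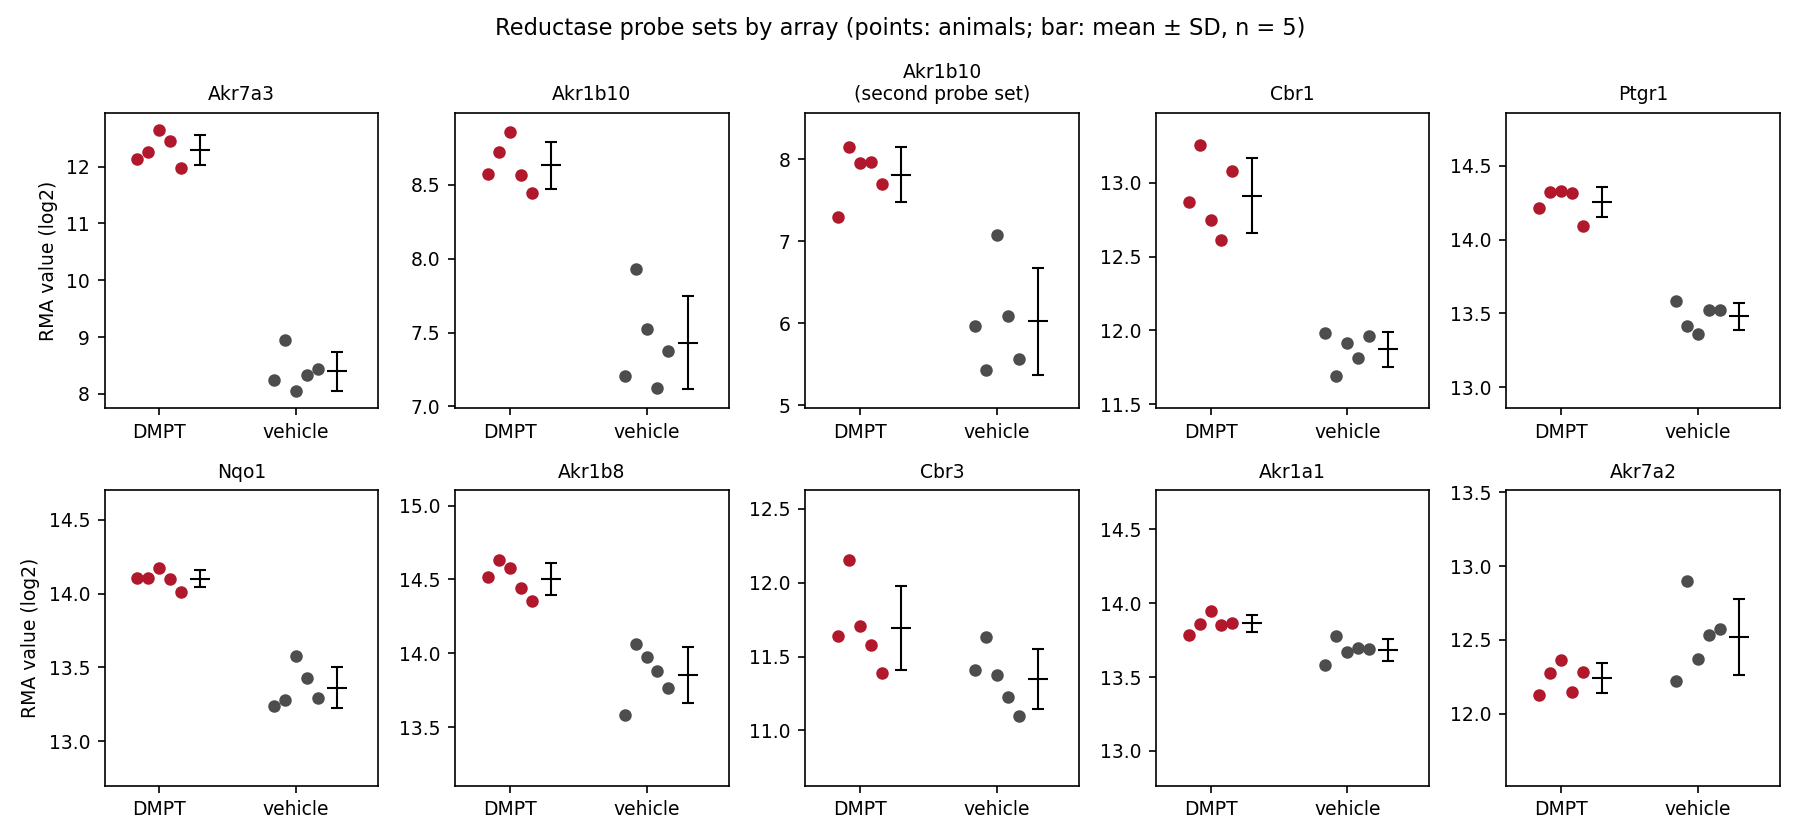
Log2 expression of each of the 10 reductase probe sets on every array, with the 5 DMPT arrays left of the 5 vehicle arrays; bars give each group's mean ± SD. Vertical axes start at different levels, and those of Akr7a3 and the second Akr1b10 probe set span a wider range than the others. The DMPT points lie above all vehicle points in 8 panels, and those of Akr7a2 and Cbr3 overlap the vehicle points.

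Nqo1 encodes the cytosolic quinone reductase that takes quinones directly to hydroquinones, bypassing the reactive semiquinone. Its probe set (1387599_a_at) read 14.11, 14.10, 14.18, 14.10 and 14.01 after DMPT, against 13.24, 13.28, 13.58, 13.43 and 13.29 with vehicle. Every DMPT array was above every vehicle array, and the DMPT arrays lay closer together. Nqo1 rose by 0.74 ± 0.089 log2 units (SE; 95% confidence interval 0.54 to 0.93; adjusted p = 0.000416). Only 0.445% of probe sets had a higher mean level than Nqo1. Its size of change near the top of the array's range is therefore less certain than that of mid-range genes, a limit shared with Ptgr1, Akr1b8 and Akr1a1, for which 0.284%, 0.0805% and 0.403% were higher.

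Ptgr1 encodes prostaglandin reductase, which saturates the reactive double bond of unsaturated aldehydes and ketones and of oxidised prostaglandins, and was known in rats as a dithiolethione-inducible gene. Its probe set (1388102_at) read 14.21, 14.32, 14.33, 14.31 and 14.09 after DMPT, against 13.59, 13.41, 13.36, 13.52 and 13.52 with vehicle. The groups were clearly apart, with DMPT replicate 5 the lowest of the treated arrays. Ptgr1 rose by 0.77 ± 0.086 (95% confidence interval 0.59 to 0.96; adjusted p = 0.000241).

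The AKR7 enzymes are known as aflatoxin aldehyde reductases. Akr7a3 encodes the inducible form of rat liver, which reduces the dialdehyde of aflatoxin and other dicarbonyl compounds. Its probe set (1368121_at) read 12.13, 12.26, 12.64, 12.45 and 11.97 after DMPT, against 8.24, 8.94, 8.04, 8.32 and 8.43 with vehicle. A gap of 3.03 log2 units separated the lowest DMPT array from the highest vehicle array, which was replicate 2. Akr7a3 rose by 3.90 ± 0.17 log2 units (adjusted p = 7.76e-07), with a 95% confidence interval of 11.4-fold to 19.4-fold. It ranked 4 of 14217 genes when genes were ordered by their signed difference.

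Akr7a2 encodes the other AKR7 enzyme, which reduces succinic semialdehyde among other aldehydes. Its probe set (1367843_at) read 12.13, 12.28, 12.36, 12.15 and 12.29 after DMPT, against 12.22, 12.90, 12.37, 12.54 and 12.57 with vehicle. The groups overlapped, with 4 of the 5 vehicle arrays above all DMPT arrays and vehicle replicate 1 among them. The difference was -0.28 ± 0.12 (95% confidence interval -0.55 to -0.012; adjusted p = 0.181 by limma). Without vehicle replicate 2 it was -0.19.

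The aldo-keto reductases of the 1B branch reduce aldehydes and, in humans, AKR1B10 reduces retinal and lipid-derived aldehydes. Akr1b8 encodes a rodent enzyme of this branch. Its probe set (1370902_at) read 14.52, 14.63, 14.58, 14.44 and 14.35 after DMPT, against 13.58, 14.06, 13.98, 13.88 and 13.77 with vehicle. No vehicle array reached the lowest DMPT array. Akr1b8 rose by 0.65 ± 0.11 (95% confidence interval 0.42 to 0.88; adjusted p = 0.00263).

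Akr1b10 was read by a brighter probe set (1395190_at) at 8.58, 8.72, 8.86, 8.57 and 8.45 after DMPT, against 7.21, 7.93, 7.53, 7.13 and 7.38 with vehicle. The groups did not overlap, and vehicle replicate 2 was the highest vehicle array. The rise was 1.20 ± 0.15 (95% confidence interval 0.88 to 1.53; adjusted p = 0.000488). The dimmer probe set (1382034_at) read 7.29, 8.15, 7.95, 7.97 and 7.69 after DMPT, against 5.97, 5.42, 7.07, 6.09 and 5.56 with vehicle. Here too no array of one group crossed into the other, although vehicle replicate 3 came close to DMPT replicate 1. It rose by 1.79 ± 0.28, or 3.45-fold (95% confidence interval 1.18 to 2.40; adjusted p = 0.00204). In 4 vehicle arrays it lay below the array's own lower quartile (6.37 to 6.51 over the arrays), so the size of its rise is uncertain.

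Akr1a1 encodes aldehyde reductase, a broadly expressed enzyme that in mice also serves the synthesis of ascorbate. Its probe set (1398753_at) read 13.79, 13.86, 13.95, 13.85 and 13.87 after DMPT, against 13.58, 13.78, 13.67, 13.70 and 13.69 with vehicle. The groups did not overlap, by a margin of 0.0075. The difference of 0.18 ± 0.077 did not pass (95% confidence interval 0.011 to 0.35; adjusted p = 0.172 by limma).

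Cbr1 encodes carbonyl reductase, a short-chain dehydrogenase that reduces quinones, prostaglandins and drug ketones. Its probe set (1368037_at) read 12.87, 13.25, 12.75, 12.61 and 13.08 after DMPT, against 11.98, 11.69, 11.92, 11.81 and 11.96 with vehicle. All DMPT arrays exceeded all vehicle arrays, and the spread was wider after DMPT. Cbr1 rose by 1.04 ± 0.13 (95% confidence interval 0.77 to 1.32; adjusted p = 0.000413). The 3 Cbr1-like genes next to it in the RefSeq table (Cbr1l1, Cbr1l2 and Cbr1l3) may share sequence with it, and whether this probe set also reads them was not tested.

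Cbr3 encodes a close relative of CBR1 with narrower activity in humans. Its probe set (1373085_at) read 11.64, 12.16, 11.71, 11.58 and 11.39 after DMPT, against 11.41, 11.63, 11.37, 11.23 and 11.10 with vehicle. The groups overlapped, with DMPT replicate 5 below 2 vehicle arrays. The difference of 0.35 ± 0.15 did not pass (95% confidence interval 0.026 to 0.67; adjusted p = 0.165 by limma). With the RNA quality ratio of the arrays as a covariate it was 0.58 and passed (adjusted p = 0.0122).

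**Figure D2:**
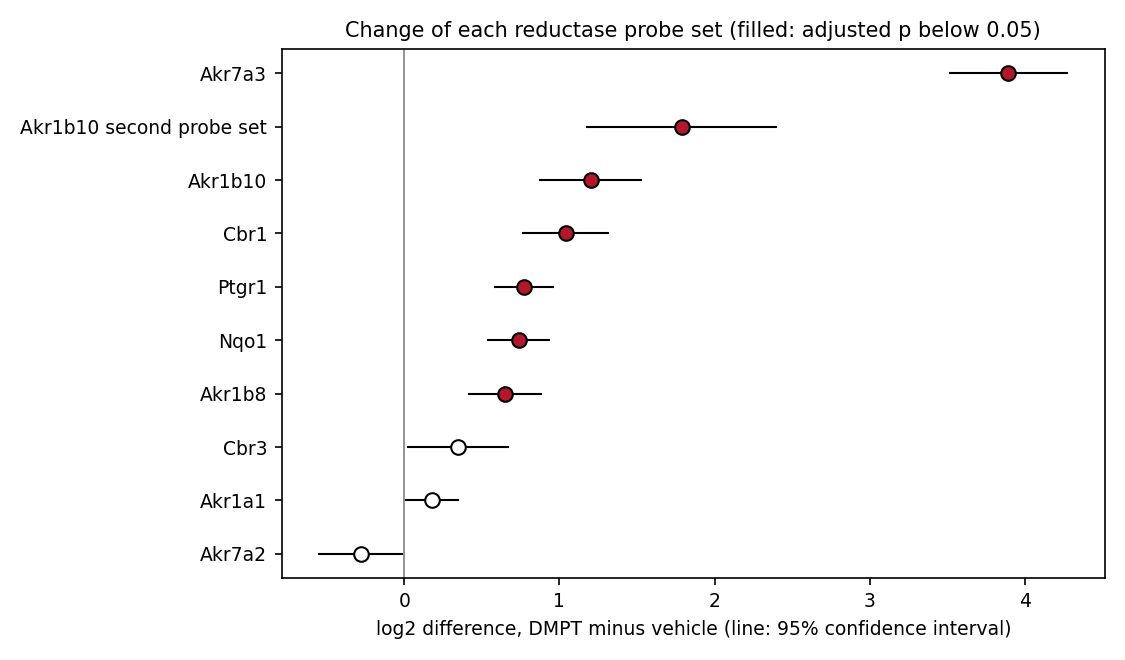
Difference of each reductase probe set, DMPT minus vehicle, on the log2 scale. Points are limma estimates over 5 arrays per group, lines are 95% confidence intervals, and filled points passed the test. Akr7a3, at 3.90, lies apart from the other probe sets, which run between -0.28 and 1.79.

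Among the treated animals, some arrays were often the lowest or highest across these genes. DMPT replicate 5 was the lowest of the 5 DMPT arrays in 6 of the 10 probe sets and DMPT replicate 3 the highest in 6. DMPT replicate 1 was the lowest in 3 and DMPT replicate 2 the highest in 4. The RNA quality ratio, defined below, was 0.873 and 0.966 in DMPT replicates 5 and 1, 1.08 in 4, and 1.27 and 1.30 in 3 and 2. Its part in these ranks was not tested, and ranks over all probe sets were not counted. Of the 7 called probe sets, 5 had a smaller SD after DMPT than with vehicle, and this share was not counted over all probe sets. The mean r of the arrays with their own group was 0.989 to 0.991 after DMPT and 0.975 to 0.986 with vehicle. The 0.975 belonged to vehicle replicate 2, and its correlations also enter the means of the other vehicle arrays (0.985 to 0.986). Means without vehicle replicate 2 were not computed, so no closeness of whole arrays after DMPT is read from these values. After each group's mean was subtracted, the 36 pairs among the 9 genes had a median Pearson r of 0.19 over 10 arrays. These values ran between -0.59 for Akr7a3 with Cbr1 and 0.90 for Akr1a1 with Akr7a2, and the arrays share all their processing.

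Related enzymes were then compared within each array, which asks whether they changed unequally. The value itself depends on the probes of both genes, so only its shift between groups is read. A shift does not show that either gene was unchanged. Akr1b8 and Nqo1 read near the top of the array's range, unlike Akr1b10 and Nqo2. The shifts of these pairs therefore carry the limit given above for such genes, and its part in them was not tested. Akr7a3 and Akr7a2 lie on chromosome 5 and Akr1b8 and Akr1b10 on chromosome 4, with 4 and 1 annotated genes between them in the RefSeq table, of which 0 code for proteins. Cbr1 and Cbr3 lie on chromosome 11 with 6 annotated genes between them, of which the 3 Cbr1-like genes code for proteins. The fourth pair set Nqo1 beside Nqo2, which encodes the quinone reductase that prefers dihydronicotinamide riboside to NADPH.

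The log2 value of Akr7a3 minus that of Akr7a2 averaged 0.050 ± 0.25 after DMPT and -4.13 ± 0.16 with vehicle (SD, n = 5 each). The highest vehicle array was at -3.95 and the lowest DMPT array at -0.31, so the groups were far apart. The pair shifted by 4.18 ± 0.13 log2 units (SE). Cbr3 minus Cbr1 averaged -1.22 ± 0.27 after DMPT and -0.52 ± 0.29 with vehicle, a shift of -0.70 ± 0.18. The nearest arrays, DMPT replicate 4 at -1.03 and vehicle replicate 5 at -0.87, did not cross.

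Akr1b8 minus Akr1b10 averaged 5.87 ± 0.088 after DMPT and 6.42 ± 0.22 with vehicle, a shift of -0.55 ± 0.11. With the mean of both Akr1b10 probe sets the shift was -0.84, over 1.5 times larger. Nqo1 minus Nqo2 averaged 4.14 ± 0.12 after DMPT and 3.58 ± 0.38 with vehicle, a shift of 0.55 ± 0.18. Its nearest arrays were close, DMPT replicate 2 at 4.02 and vehicle replicate 4 at 4.01. Nqo2 itself differed by 0.18 ± 0.15 (adjusted p = 0.503 by limma). In each of the 4 pairs no array of one group crossed into the other, and the two-sided exact permutation test over all labelings gave p = 0.00794, the smallest it allows (0.00794 when adjusted over the 4 pairs).

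**Figure D3:**
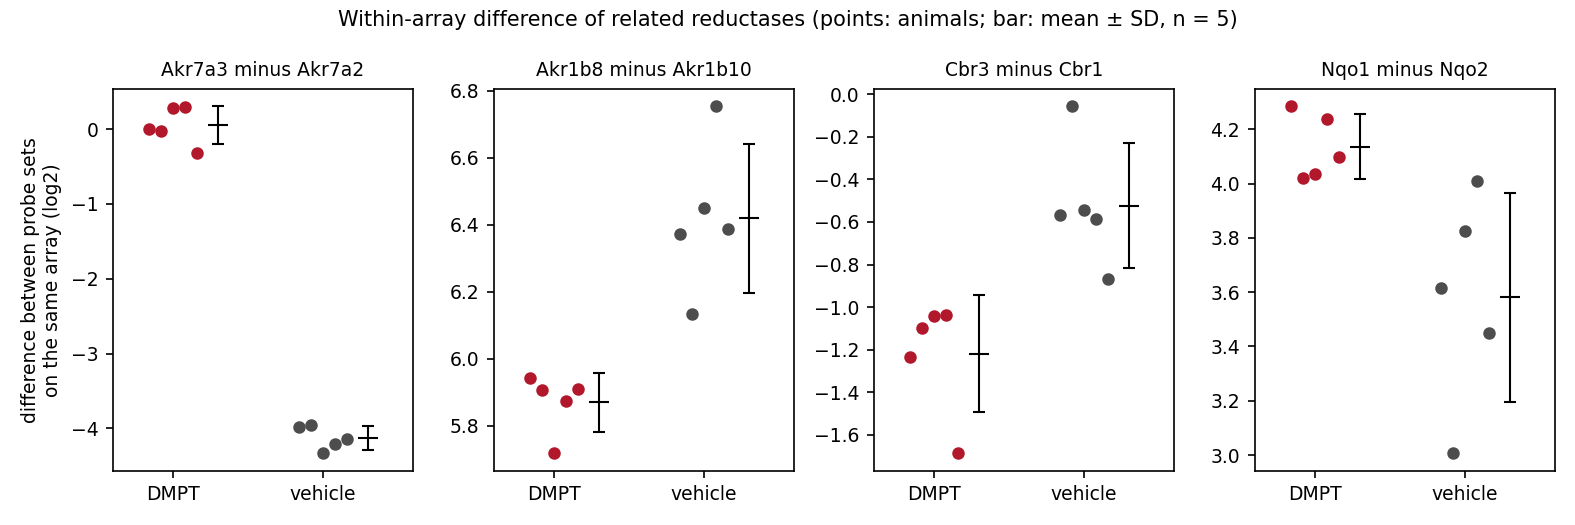
Log2 difference between the 2 genes of each of the 4 pairs on every array, with DMPT arrays left of vehicle arrays; bars give each group's mean ± SD and vertical axes differ between panels. The Akr7a3 minus Akr7a2 values lie near 0 after DMPT and near -4.13 with vehicle, and the shifts of the other pairs are 0.70 or smaller in size.

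Genes of neighbouring function were read from lists of pathway members, against the 7.13% higher and 6.77% lower among all genes. Of 13 measured further aldo-keto reductases, 2 were higher and 1 lower, with a median difference of 0.023. Akr1b1, aldose reductase of the polyol pathway, rose by 0.56 ± 0.081 (adjusted p = 0.00130). A dimmer probe set of it differed by -0.026. Akr1c3 rose by 1.28 ± 0.25 (adjusted p = 0.00782), with means of 6.08 after DMPT and 4.80 with vehicle; both are below the arrays' lower quartiles, so its size is uncertain. Akr1c19 fell by 0.83 ± 0.18 (adjusted p = 0.0130). Without vehicle replicate 2, 2 genes of this list were lower.

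Of 22 further carbonyl and short-chain reductases, 4 were higher and 2 lower, with a median of 0.050. Dhrs9, a retinol and steroid dehydrogenase, rose by 0.95 ± 0.11 (adjusted p = 0.000253) and Blvrb, biliverdin reductase B, by 0.73 ± 0.10 (adjusted p = 0.00115). Hsd17b12, a reductase of fatty acid elongation, rose by 0.32 ± 0.077 and Hsd17b8, of mitochondrial fatty acid synthesis, fell by 0.58 ± 0.14. Dcxr, which reduces xylulose, rose by 0.37 and Dhrs11 fell by 0.45. The lower count was 0 without DMPT replicate 1 (Hsd17b8 at -0.52 and Dhrs11 at -0.40) and 1 without DMPT replicate 5, and the higher count was 2 without DMPT replicate 2 (Hsd17b12 at 0.31 and Dcxr at 0.32). Hsd17b12 also lost its call without DMPT replicate 3 or vehicle replicate 3 (0.30 each), and Dcxr without DMPT replicates 1, 4 or 5 or vehicle replicates 4 or 5 (0.34 to 0.37).

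Of 15 further quinone and enone reductases and flavoprotein reductases, 4 were higher and 1 lower, with a median of 0.14. Txnrd1, thioredoxin reductase, rose by 1.39 ± 0.18 (adjusted p = 0.000726) and Gsr, glutathione reductase, by 1.32 ± 0.17 (adjusted p = 0.000706). Vat1 rose by 0.89 ± 0.22, Ptgr3 by 0.40 ± 0.10, and Cyb5r2, a cytochrome b5 reductase, fell by 1.27 ± 0.30. The call of Vat1 was lost without DMPT replicates 2, 3 or 5 (0.86 to 0.88), that of Ptgr3 without DMPT replicates 2, 3, 4 or 5 or vehicle replicate 5 (0.33 to 0.41) and with the mean of its probe sets (0.38), and that of Cyb5r2 without DMPT replicate 3 (-1.14). The higher count was 2 without DMPT replicate 2, 3 or 5, and the lower count was 0 without DMPT replicate 3.

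The reductases draw on NADPH. A list on NADPH supply held dehydrogenases that form NADPH, enzymes of the pentose phosphate pathway that do not themselves form it, and NAD kinases. Of its 13 measured genes, 6 were higher and 1 lower, with a median of 0.16. Pgd, an NADPH-forming enzyme of the pentose phosphate pathway, rose by 1.27 ± 0.13 (adjusted p = 0.000141), Me1, malic enzyme, by 0.82 ± 0.085 (adjusted p = 0.000163), Tkt, transketolase of the branch of that pathway without NADPH, by 0.66 ± 0.088 (adjusted p = 0.000791), and cytosolic Idh1 by 0.34 ± 0.076 (adjusted p = 0.0150). Mitochondrial Idh2 fell by 0.34 ± 0.087 (adjusted p = 0.0292), a call lost without any 1 of the 5 DMPT arrays or without vehicle replicates 4 or 5 (-0.35 to -0.33), which made the lower count 0.

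Of 9 regulators of NRF2 and its partners, 3 were higher and 0 lower, with a median of 0.26. Maff, a small Maf protein, rose by 3.52 ± 0.28 (adjusted p = 3.03e-05), Bach1, a repressor at antioxidant response elements, by 0.67 ± 0.14, and Sqstm1, a KEAP1-binding adaptor, by 0.52 ± 0.11. Averaged over all its probe sets, Sqstm1 differed by 0.25 and did not pass. Nfe2l2, which encodes NRF2, differed by 0.11 ± 0.11 (adjusted p = 0.619) and Keap1 by 0.26 ± 0.12 (adjusted p = 0.188). Without vehicle replicate 2, Keap1 was at 0.34 and passed (adjusted p = 0.0454).

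Of 19 genes known as NRF2 targets, most of them of glutathione and thiol chemistry, 15 were higher and 0 lower, with a median of 0.51. The list also held other targets, such as a heme oxygenase, an epoxide hydrolase and ABC exporters. The heme oxygenase and an exporter were among those higher. Slc7a11, the cystine importer, rose by 4.12 ± 0.19, and Gclm and Gclc, the subunits of glutamate-cysteine ligase, by 1.84 ± 0.12 and 1.42 ± 0.10. Srxn1, sulfiredoxin, rose by 2.86 ± 0.22 on its brightest probe set, and its other probe sets differed by 2.45 and -0.049. On the brightest probe set of each of these named genes, adjusted p ran between 7.76e-07 and 2.66e-05.

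Nqo1 is also a known target of the aryl hydrocarbon receptor. Of 9 measured genes of that receptor and its targets, 2 were higher and 0 lower, with a median of 0.11. Aldh3a1, an aldehyde dehydrogenase, rose by 1.04 ± 0.23 (adjusted p = 0.0143). Cyp1b1 rose by 1.74 ± 0.50 (adjusted p = 0.0464), a call lost without DMPT replicates 1 or 3 or any 1 vehicle array (1.65 to 1.86), which made the higher count 1. Its vehicle values, 5.25 to 5.96, were all below the arrays' lower quartiles (6.37 to 6.51). After DMPT it ran between 6.05 and 9.29, so the size of its rise is uncertain. Cyp1a1, the standard target, was at 7.22 ± 0.59 after DMPT and 7.41 ± 0.32 with vehicle (adjusted p = 0.722).

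**Figure D4:**
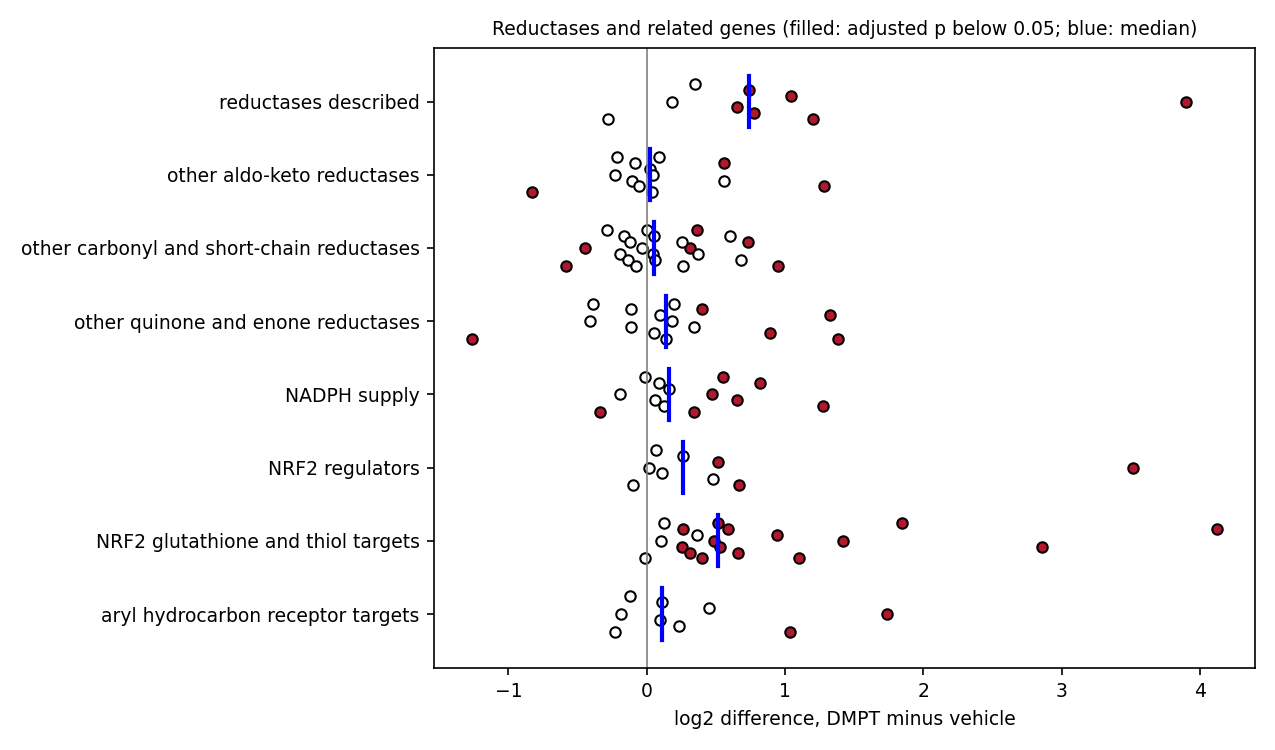
Difference of every measured gene, DMPT minus vehicle on the log2 scale, for the 9 reductase genes (top row) and the related lists. Each point is a gene, filled points passed the test, and blue bars are list medians. The median is 0.74 for the reductases described here and 0.51 for the glutathione, thiol and other targets of NRF2. The other lists have medians between 0.023 and 0.26.

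As a description, the genes whose levels followed Nqo1 most closely over the 10 arrays were Gclc, Xkr5 and Maff (Pearson r = 0.987, 0.987 and 0.986). For Akr7a3 they were Ethe1, Fam83d and Hmga1 (r = 0.991, 0.990 and 0.990). Most of this likeness is the step between the groups. With the group means subtracted, the closest genes to Nqo1 were Jph2, Clcn4 and Rasl12 (r = 0.951, 0.918 and 0.902). Those to Akr7a3 were Septin5, Bace2 and Josd2 (r = 0.947, 0.934 and 0.932). None of these 6 passed the group comparison. Clcn4 averaged 5.50 after DMPT and 5.64 with vehicle, below the arrays' lower quartiles. The highest of 14217 genes were taken over 10 arrays, so such r values may come from selection alone. No chance level was computed for them.

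Markers of several cell types moved with treatment. Of 8 basal and squamous markers, 4 were higher and 0 lower. Their mean level was 11.19 to 11.85 after DMPT and 10.21 to 10.35 with vehicle. Among them Sprr1a, a squamous marker, differed most, by 4.81, and Krt5 rose by 0.60. Krt14 and Krt15 did not pass (0.096 and 0.14). Of 6 sustentacular and Bowman gland markers, 0 were higher and 5 lower, at 11.03 to 11.74 after DMPT and 12.24 to 12.72 with vehicle, or 3 lower without DMPT replicate 5. Of 9 endothelial markers, 6 were higher and 0 lower, at 7.26 to 8.48 after DMPT and 6.20 to 7.40 with vehicle. Pecam1 rose by 1.15, from a vehicle mean of 6.35 that lay near the arrays' lower quartiles (6.37 to 6.51), so its size is uncertain. The endothelial count was 3 without DMPT replicates 1, 3 or 4 or vehicle replicates 4 or 5. Of 4 ciliated cell markers, 3 were lower, at 9.87 to 11.56 after DMPT and 11.14 to 12.33 with vehicle, and the lower count was 1 without vehicle replicate 1 and 0 without DMPT replicates 3, 4 or 5 or vehicle replicates 2, 4 or 5. Of 11 secretory markers 0 were higher and 3 lower, of 13 leukocyte markers 3 were higher and 2 lower, and of 10 stromal markers 0 passed. The lower leukocyte count was 1 without any 1 array other than vehicle replicate 2, and the higher olfactory count was then 0. The higher count of the common epithelial markers was 1 without DMPT replicates 2 or 5 or vehicle replicates 1 or 4. The part of these cell types in the reductase differences was not tested.

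The RNA quality ratio, averaged over the GAPDH and beta-actin controls as the log2 signal of 3′ probes minus that of 5′ probes, ran between 0.873 and 1.30 after DMPT and between 1.17 and 1.50 with vehicle. The difference was -0.18 (two-sided exact permutation p = 0.143, n = 5 each). With this ratio as a covariate, all 7 called reductase probe sets passed, Akr7a3 at 4.13, the brighter Akr1b10 probe set at 1.42 and the dimmer at 1.86, Cbr1 at 1.02, Ptgr1 at 0.81, Akr1b8 at 0.75 and Nqo1 at 0.74. Without vehicle replicate 2, Akr7a3 was at 4.03, the brighter Akr1b10 probe set at 1.33, Cbr1 at 1.00, Ptgr1 at 0.76, Akr1b8 at 0.70 and Nqo1 at 0.72, and all passed.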

How the data were processed

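The values that the authors deposited are on the log2 scale and were computed by RMA, per the submitters' processing notes; its version is not given in the labels. RMA corrects background, equalises the arrays and summarises the probes of each set. Each array came from a separately numbered animal; animals were housed 2 per cage and which shared a cage is not given, so arrays were treated as independent. The number of arrays limits the precision.

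After 57 control probe sets were set aside, 31042 were tested without a filter by limma 3.58.1 under R 4.3.3, with treatment as the only term (eBayes, two-sided, Benjamini-Hochberg over all, threshold 0.05). Of these, 20826 had 1 gene symbol in the platform annotation, 436 several and 9780 none; only the first were named. A gene was represented by its probe set with the highest mean, and no probe set of several genes named a reductase described here. Values after ± of a difference are standard errors. Pairs of genes and the RNA quality ratio were compared by exact permutation tests. The fit was tested on simulated data.

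The genes, lists and tests were chosen with earlier results of these data known. The naming rule took every reductase described here with every probe set and up to 4 called genes of each list by smallest p. It also took Nfe2l2, Keap1, Nqo2, the 3 genes most like Nqo1 and Akr7a3, and the first markers of cell type lists. Only some of those first markers are given. Dcxr, Dhrs11, Ptgr3, Idh2, Cyp1a1, Krt8, Krt7, Krt15, Sprr1a, Adcy3, Gap43 and Gng13 were named after their values were seen. Alternatives were array centring, quantile normalization, a filter on dim probe sets, a trend and robust variance, array weights, the RNA quality ratio as a covariate, a replicate block, the mean of all probe sets of a gene and leaving out each array. The authors used the ORIOGEN software per the series' design text, which was not run. Promoter sequences and gene order came from RefSeq tables of GRCr8.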

Additional observations from a re-analysis of the deposited data

Results flagged for a closer look

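Values far from the rest of their group were sought in 130 groups of 5 arrays, and 12 held one; chance flags about 1 in 20 groups. None was a probe set or pair of the 9 reductase genes. Vehicle replicate 2 was low for Txnrd1 at 11.07 (the other vehicle arrays 11.90 to 12.15), Vat1 at 9.82 (10.95 to 11.17), Aldh3a1 at 12.21 (13.44 to 13.65) and Ptgr3 at 9.57 (9.84 to 9.91). DMPT replicate 1 was high for Gsr at 11.51 (the other DMPT arrays 11.18 to 11.21) and Omp at 8.45 (7.02 to 7.39) and low for Hsd17b8 at 10.81 (11.08 to 11.17). DMPT replicate 5 was low for Srxn1 at 11.71 (12.44 to 12.70) and Xkr5 at 7.68 (7.87 to 7.93). DMPT replicate 3 was high for Jph2 at 6.89 (6.74 to 6.78). Vehicle replicate 1 was high for Krt5 at 12.86 (12.45 to 12.55), and vehicle replicate 5 was high for Omp at 7.98 (6.84 to 7.16).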

How the results depend on the processing

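The 7 called reductase probe sets passed in each alternative run on probe sets and in each omission of 1 array, and the 6 called genes also passed with the mean of all probe sets of a gene. In omissions Akr7a3 ran between 3.81 and 4.03, Nqo1 between 0.70 and 0.79, Cbr1 between 0.96 and 1.12 and Akr1b8 between 0.58 and 0.70. The uncalled genes passed in some settings: Akr1a1 (0.18) with a trend and robust variance (adjusted p = 0.0264), and Cbr3 (0.58) with the RNA quality covariate. The exact permutation test without adjustment gave p = 0.00794 for Akr1a1 (0.18) and p = 0.0476 for Akr7a2 (-0.28). Whether replicate numbers pair the arrays was not settled. Deviations of same-numbered arrays correlated at r between -0.067 and 0.23, and 5 of 10 arrays correlated best with their own number. No chance level was computed for this count. With a replicate block, the Nqo1 difference remained 0.74 (adjusted p = 0.00317) and that of Akr7a3 3.90 (adjusted p = 7.01e-05), and the counts of called reductases were those of the unblocked fit.

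Over all probe sets, omissions gave between 1137 and 2130 higher and between 1022 and 1886 lower, with 1022 lower without DMPT replicate 3 and 1147 without DMPT replicate 4. The RNA quality covariate gave 951 lower. Among the lists, it left 0 lower in the NADPH, carbonyl and quinone lists and 1 higher in the aryl hydrocarbon receptor list. The replicate block gave 0 lower NADPH genes, 2 higher carbonyl reductases and 2 lower quinone reductases. Quantile normalization, the trend and robust variance and array weights gave 2 lower aldo-keto reductases. The filter on dim probe sets left 1 higher aldo-keto reductase and 1 higher receptor target, and array weights 1 higher receptor target. Omissions gave 1 to 2 lower aldo-keto reductases, 2 to 6 higher and 0 to 2 lower carbonyl reductases, 2 to 4 higher and 0 to 1 lower quinone reductases, 0 to 1 lower NADPH genes and 1 to 2 higher receptor targets. In the list of glutathione, thiol and other NRF2 targets, 10 were higher with the RNA quality covariate and 11 with the replicate block. Quantile normalization gave 12 and omissions 10 to 15. Among called genes named from the lists, Hsd17b8 (-0.45), Dcxr (0.38), Dhrs11 (-0.42), Cyb5r2 (-1.08), Vat1 (0.70), Ptgr3 (0.33), Bach1 (0.49), Sqstm1 (0.47), Idh2 (-0.31) and Aldh3a1 (0.81) did not pass with the RNA quality covariate. Hsd17b12 (0.32), Dcxr (0.37), Idh1 (0.34) and Idh2 (-0.34) did not pass with the replicate block, which leaves differences as they were, nor Cyp1b1 (1.57) with array weights. The causes were not tested. Levels near the top or bottom of an array's range limit how well sizes are known.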
